A study of Rattus norvegicus with 9 samples.

Results

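Most of the genes described here encode enzymes that keep the thiol pool of a cell reduced or remove peroxides, superoxide, quinones and reactive aldehydes. They were taken from the Rat Genome U34A array, an oligonucleotide microarray on which each transcript is read by a probe set, by their annotated names. A gene was included when a probe set carried a single symbol that starts with Gst, Gpx, Sod and a digit, Prdx, Txn, Gcl, Aldh or Akr, or that is Cat, Nqo1, Gsr, Gss or Mgst1. This rule gave 56 genes of the 4736 named genes on the array, read by 98 probe sets. Of these genes, 32 had several probe sets and 24 had 1. Each gene is given at its brightest probe set by the mean over the 9 arrays, unless another is named. Another 3 probe sets whose several symbols included a matching one were left out.

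The cells were sympathetic neurons from the superior cervical ganglia of embryonic day 21 Holtzman rats, grown in serum-free medium with nerve growth factor at 100 ng/ml and cleared of dividing non-neuronal cells with Ara-C for 48 hr. BMP-7, a bone morphogenetic protein that makes these neurons grow dendrites, was added at 50 ng/ml on day 5 in culture for 24 hr (BMP24h) or 6 hr (BMP6h), while control cultures were kept in medium alone for 24 hr, with 3 arrays for each condition. Each array read RNA pooled from several cultures, and the growth and treatment were carried out 3 times, each from a separate dissection that supplied all conditions. Replicate 1 of each condition was hybridized in processing batch 1 at 10 µg of cRNA, and both other replicates in batch 2 at 5 µg.

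Glutathione is a small thiol that is made by glutamate-cysteine ligase and glutathione synthetase, used by peroxidases and transferases, and returned to its reduced form by glutathione reductase. Superoxide dismutases turn superoxide into hydrogen peroxide, which catalase, glutathione peroxidases and peroxiredoxins then remove, with thioredoxin and its reductases supplying electrons to most peroxiredoxins. Sympathetic neurons make noradrenaline, and the breakdown of catecholamines by monoamine oxidases gives hydrogen peroxide and aldehydes, which aldehyde dehydrogenases oxidize and aldo-keto reductases reduce. The transcription factor Nrf2 is known to bind the antioxidant response element in the promoters of many of these genes.

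Short stretches of 6 promoters are shown because they hold the letters of that element in genes that the results below describe or that are well known to carry it. The promoter table, from RefSeq for rat build GRCr8, spans 250 bases before to 50 bases after each gene's start and held 46 of the 56 genes. Each 30-base stretch is written 5′ to 3′ along the gene, and the capitals mark the match to TGACNNNGC on either strand.
Sod2, chr1:50050184-50050213, minus strand: ggcgctgccgGCAGGGTCAgcgcctagctg
Gclm, chr2:213031953-213031982, plus strand: tgcggtttctGCTTAGTCAttgtcttccag
Gpx2, chr6:101230034-101230063, minus strand: ggtgggtacctggtttcGCTAAGTCAttct
Gsta3, chr9:31154959-31154988, plus strand: agcaactcaggcaTGACTTCGCattttttc
Gstp1, chr1:210769747-210769776, minus strand: tccactgtgtTGACTCAGCatccggggcgg
Prdx1, chr5:135383761-135383790, plus strand: cagggaaagcGCTGAGTCAtaccccgccgg

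The Gstp1 and Prdx1 matches overlap TGACTCA, the letters of an AP-1 site. TGACNNNGC was found in 11 of the 46 promoters (23.9%), against 3342 of 27457 promoters in the table (12.2%). Among the genes named below as past the unadjusted thresholds, Gsr and Akr1d1 had no promoter in the table. Nqo1 and Akr1c14 had no match, Sod2 had one before its start and Gsta1 one after it. GGCGCC, a GC-rich sequence bound by BMP-regulated Smads, was found in 5 of the 46 (10.9%), against 3234 of 27457 (11.8%), and is a palindrome, so that both strands give the same matches. Both motifs were chosen after the values of the genes had been seen, and a match of letters is a description of the sequence and not of binding.

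The deposited values are log2 expression values between 2.69 and 14.38, and a step of 1 is a 2-fold difference. Brightness differs between probe sets for reasons other than transcript number, so levels are read within a probe set. Id2, a target of BMP signalling that checks the labels, rose by 1.98 in BMP24h and 2.43 in BMP6h against control on the log2 scale (limma adjusted p = 0.0109 and 0.00721). Neuronal markers averaged 10.95 to 11.27 per array in BMP24h, 11.22 to 11.27 in BMP6h and 11.13 to 11.21 in control cultures (11 of 14 measured, from Syt1 at 6.52 to Th at 13.44). BMP6h replicate 2 stood apart from its group, with 31.6% of all named genes more than 0.5 (log2) away from the average of its fellow BMP6h arrays, and a difference against BMP6h that moved by over 1.5 times or changed its call without this array is given both ways.

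No gene of the group passed the adjusted test in any of the 3 comparisons (limma, p-values adjusted over 8740 probe sets, threshold 0.05). Over all named genes 0.211% passed in BMP24h against control (0.0211% with lower values), 0.0422% in BMP6h against control and 0.0% in BMP24h against BMP6h. At an unadjusted p under 0.05 the group held 4 genes in BMP24h against control (3.86% of all named genes did so), 2 in BMP6h against control (1.79%) and 2 in BMP24h against BMP6h (3.29%), and each of these also differed by at least 1.2-fold, which are the thresholds of the Methods. The lowest adjusted p was 0.972 for Gsr in BMP24h against control, and the lowest in the other comparisons were 0.887 (BMP6h against control) and 0.939 (BMP24h against BMP6h). Simulated arrays took the spread of each probe set from these data, the same on every array. There the adjusted test for BMP24h against control called 49 of 50 probe sets changed 4-fold and 31 of 50 changed 2-fold. It called 4 of 50 changed 1.5-fold and 0 of 50 changed 1.2-fold. In this simulation small differences were thus mostly not called with 3 arrays a condition. The number of changed probe sets, on which the adjustment depends, was set by the simulation. The real arrays were not equal in spread, so fewer 2-fold and 4-fold changes may be called in these data.

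The precision differed from gene to gene. The 95% confidence interval of the difference lay within 0.5 of 0 on the log2 scale, or 1.41-fold, for 26 of the 56 genes in BMP24h against control, 29 in BMP6h against control and 25 in BMP24h against BMP6h. It lay within 1, or 2-fold, for 50, 50 and 51 genes. The median difference of the 56 genes was -0.036 in BMP24h against control (0.007 over all named genes), -0.055 in BMP6h against control (-0.033) and 0.017 in BMP24h against BMP6h (0.031). Leaving out BMP6h replicate 2 gave medians of -0.009 (BMP6h against control) and -0.049 (BMP24h against BMP6h).

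**Figure D1:**
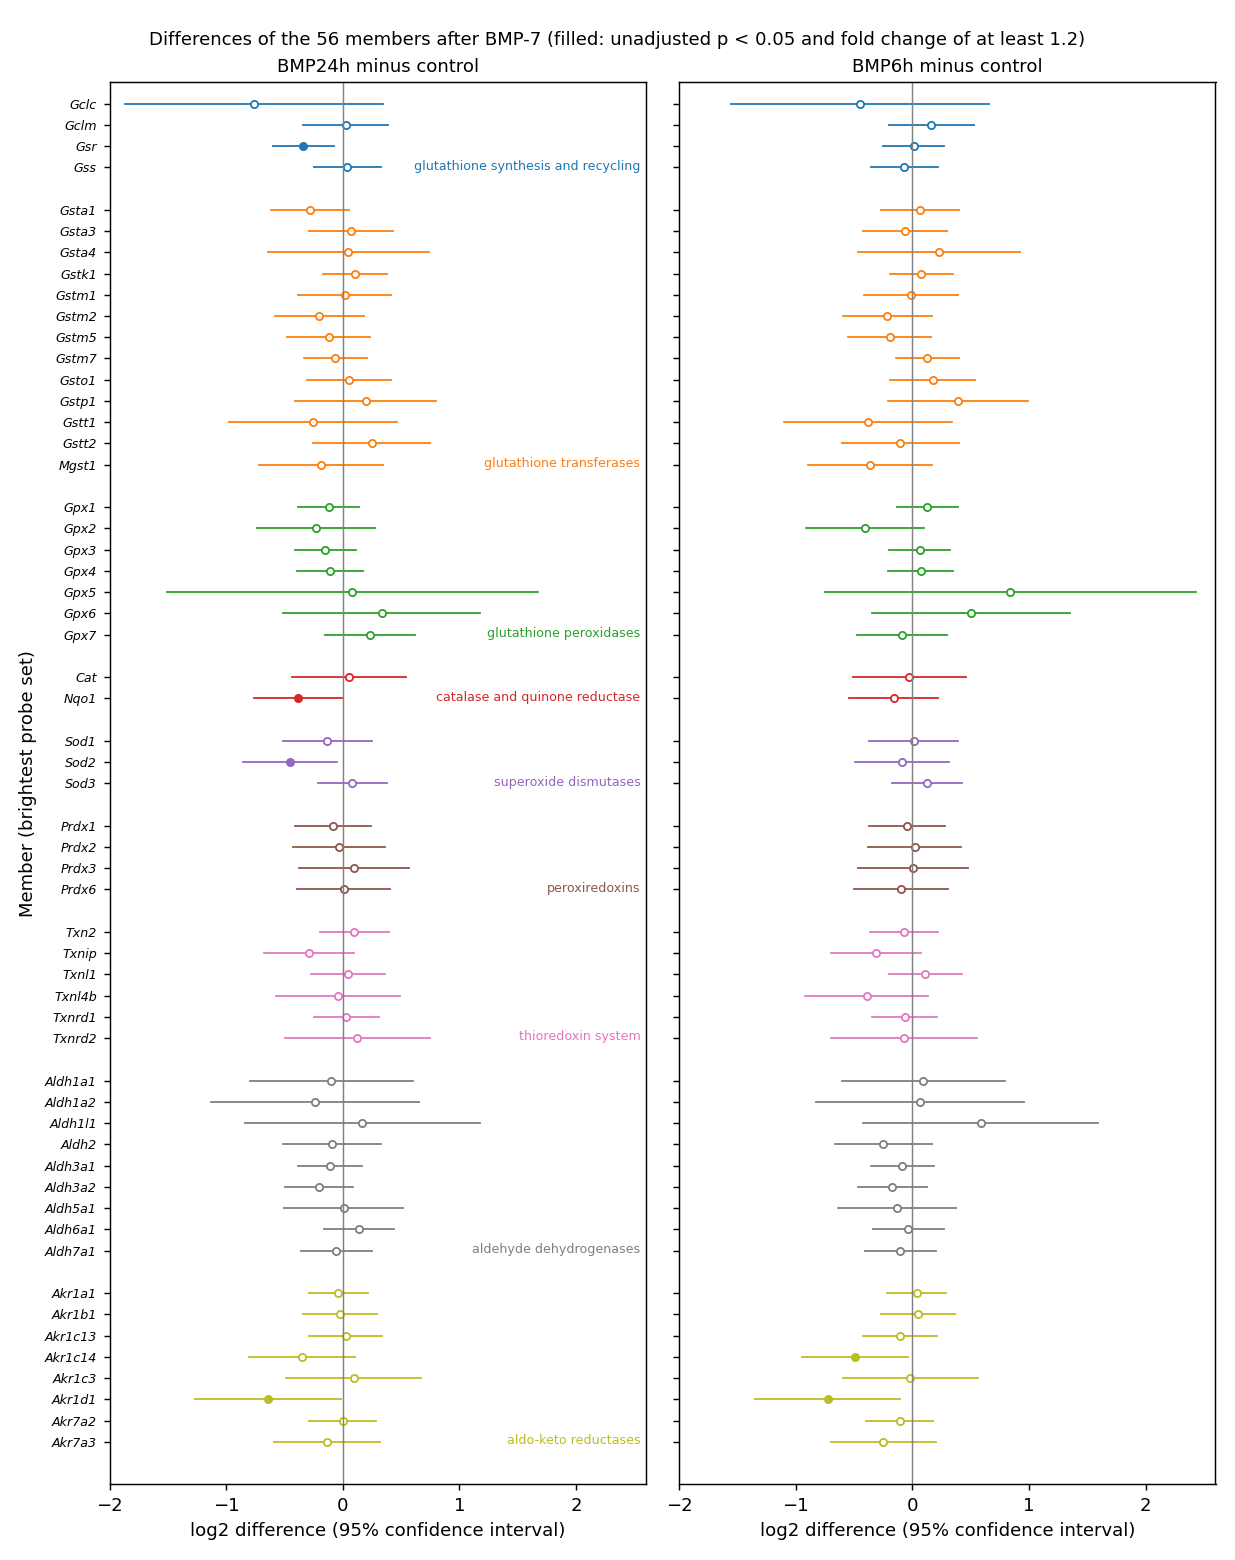
The log2 difference of each of the 56 genes (points) with its 95% confidence interval (lines), ordered by role, for BMP24h minus control and BMP6h minus control. The intervals that exclude 0 are those of the 4 and 2 genes with an unadjusted p under 0.05, and those of Gpx5 and Gclc are among the widest.

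By limma p-values, the genes past the unadjusted thresholds of the Methods in BMP24h against control were Gsr, Sod2, Nqo1 and Akr1d1, all lower with BMP-7. They make up 7.14% of the group, against 3.82% of all named genes in either direction, with 2.05% lower and 1.77% higher. In BMP6h against control Akr1d1 and Akr1c14 passed, both lower (3.57% against 1.79%, with 0.887% lower and 0.908% higher). In BMP24h against BMP6h Gsr and Gsta1 passed, both lower (3.57% against 3.21%, with 1.63% lower and 1.58% higher). Without BMP6h replicate 2 no gene passed these thresholds in BMP6h against control, and Gsr, Gpx1 and Gpx3 did in BMP24h against BMP6h. The comparisons share arrays, so a gene in more than 1 of them is not shown more firmly. The p-values set each difference against the spread between arrays of pooled cultures within the conditions, with a batch term and no dissection term. With the ordinary analysis of variance that the Methods used, Gsr alone passed in BMP24h against control, and no gene did in BMP6h against control. In BMP24h against BMP6h Gsr and Gsta1 passed with it too.

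Gsr, glutathione reductase, which returns oxidized glutathione to its reduced form with NADPH, had the most even values of these. Its brightest probe set read 8.26, 8.26 and 8.33 in BMP24h, 8.70, 8.69 and 8.51 in BMP6h and 8.58, 8.69 and 8.59 in control cultures. All BMP24h arrays lay below all arrays of the other conditions, while BMP6h and control overlapped. The difference was -0.34 ± 0.113 (SE) against control, 1.26-fold lower (limma adjusted p = 0.972), and -0.35 ± 0.113 against BMP6h (adjusted p = 0.939). Within batch 2 alone it was -0.345 against control and in batch 1, with 1 array a condition, -0.327. The unadjusted p against control was 0.068 without control replicate 2 and 0.073 without BMP24h replicate 1.

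The other probe sets of Gsr did not all follow. The second probe set to the same source sequence read 7.75, 7.61 and 7.90 in BMP24h, 8.18, 8.49 and 7.97 in BMP6h and 8.08, 8.02 and 8.03 in control cultures, and again the BMP24h arrays lay below both other conditions. Its difference was -0.29 ± 0.160 against control and -0.46 ± 0.160 against BMP6h (limma adjusted p = 1 and 0.939). The third probe set, to an expressed sequence tag, read 8.20, 8.23 and 8.42 in BMP24h, 8.31, 8.00 and 8.46 in BMP6h and 8.51, 8.60 and 8.33 in control cultures. These overlapped, with differences of -0.19 ± 0.158 against control and 0.03 ± 0.158 against BMP6h (-0.109 without BMP6h replicate 2).

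At their brightest probe sets the genes that make glutathione had no such separation. Gclc, the catalytic subunit of glutamate-cysteine ligase, read 5.80, 4.94 and 6.50 in BMP24h, 6.39, 5.36 and 6.43 in BMP6h and 6.13, 6.29 and 7.11 in control cultures. Its difference of -0.76 in BMP24h against control was the most negative of the group, but the standard error was 0.477 and the arrays overlapped (limma adjusted p = 1). Gclm, the modifier subunit, averaged 8.43 ± 0.07 in BMP24h, 8.57 ± 0.25 in BMP6h and 8.41 ± 0.14 in control cultures, and Gss, glutathione synthetase, 9.27 ± 0.12, 9.16 ± 0.11 and 9.23 ± 0.04 (SD, n = 3 each). The 3 Gclm probe sets differed from control by 0.165 to 0.372 in BMP6h and by 0.023 to 0.5 in BMP24h. At the brightest, the BMP6h difference of 0.165 was 0.008 without BMP6h replicate 2. At a further probe set every BMP6h array lay above every control array (0.371, and 0.211 without BMP6h replicate 2).

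**Figure D2:**
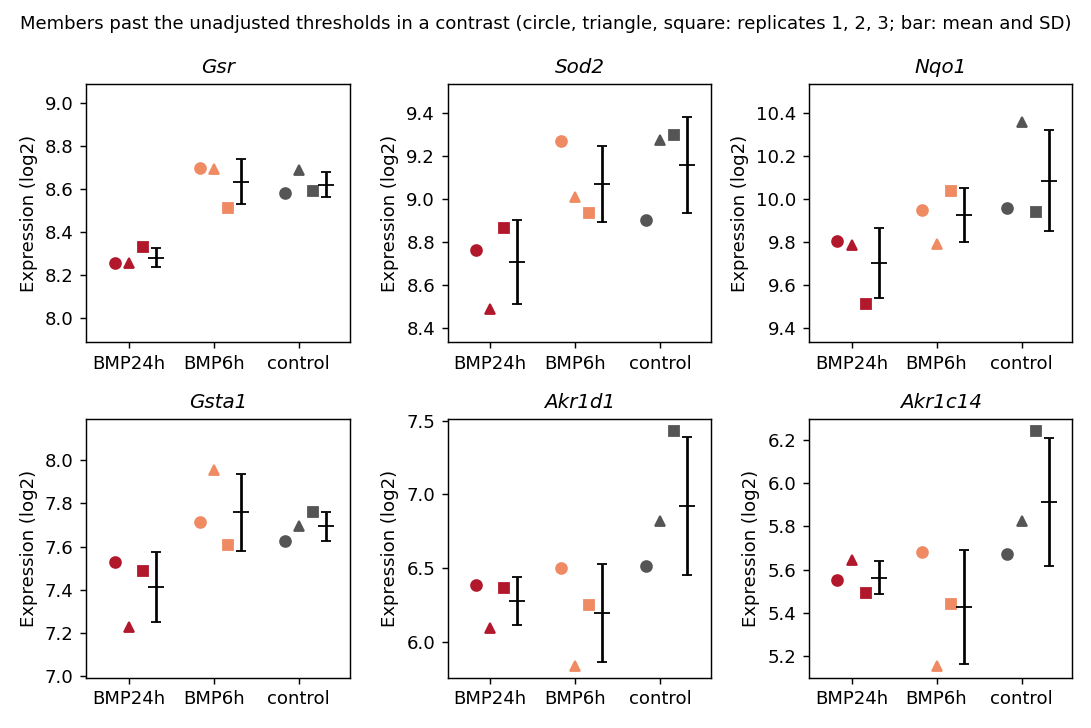
Log2 expression of the 6 genes past the unadjusted thresholds of the Methods in a comparison, on each array (circle, triangle and square for replicates 1, 2 and 3), with the mean and SD of each condition beside the points. Gsr lies at 8.26 to 8.33 in BMP24h and above 8.5 on every other array, while Akr1d1 and Akr1c14 vary more within control cultures.

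Superoxide dismutases remove superoxide in different places. Sod2, the manganese enzyme of mitochondria, read 8.76, 8.49 and 8.87 in BMP24h, 9.27, 9.01 and 8.94 in BMP6h and 8.90, 9.27 and 9.30 in control cultures. The BMP24h arrays lay below those of both other conditions, which overlapped each other. The difference was -0.45 ± 0.174 against control, 1.37-fold lower (limma adjusted p = 1), and -0.36 ± 0.174 against BMP6h (adjusted p = 0.939). In batch 2 alone it was -0.606 against control, and -0.139 between the single arrays of batch 1. The unadjusted p was 0.101 without control replicate 3 and 0.114 without BMP24h replicate 2. Sod2 had 1 probe set.

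Sod1, the copper and zinc enzyme of the cytosol, was among the brightest probe sets. It read 11.53, 11.15 and 11.70 in BMP24h, 11.53, 11.57 and 11.72 in BMP6h and 11.60, 11.48 and 11.69 in control cultures, which overlapped. The difference in BMP24h against control was -0.13, with a 95% confidence interval of -0.51 to 0.25, and its second probe set gave -0.03 (-0.29 to 0.23). Sod3, the extracellular enzyme, averaged 7.97 ± 0.06 in BMP24h, 8.02 ± 0.05 in BMP6h and 7.89 ± 0.18 in control cultures (SD, n = 3 each).

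Nqo1, a quinone reductase that is a well known Nrf2 target, read 9.81, 9.79 and 9.51 in BMP24h, 9.95, 9.79 and 10.04 in BMP6h and 9.96, 10.36 and 9.94 in control cultures. The BMP24h arrays lay below the control arrays and overlapped those of BMP6h. The difference against control was -0.38 ± 0.164, 1.30-fold lower (limma adjusted p = 1). Without control replicate 2, the highest array, it was -0.235 with an unadjusted p of 0.187. The second Nqo1 probe set, which was dimmer, read 5.92, 5.68 and 6.45 in BMP24h, 6.16, 6.07 and 6.20 in BMP6h and 6.09, 6.48 and 5.46 in control cultures, and its difference against control was 0.01 ± 0.288. The second Nqo1 probe set thus did not show the lower values, and its difference was near 0 with a wider error. Cat, catalase, averaged 9.10 ± 0.35 in BMP24h, 9.03 ± 0.20 in BMP6h and 9.05 ± 0.19 in control cultures (SD, n = 3 each).

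The Methods describe cultures kept without glia, and markers of other cell types were measured beside these genes. Levels on an array with no sample of pure neurons do not show whether such cells were present. Of the fibroblast and matrix markers 15 of 16 were measured, from Pdgfra at 6.11 to Thy1, which neurons also express, at 12.89. Their mean per array was 9.44 to 9.62 in BMP24h, 9.69 to 9.78 in BMP6h and 9.65 to 9.88 in control cultures. The median difference of these markers in BMP24h against control was -0.18, with 10 lower values, 5 higher values and 0 past the adjusted test. Glial markers averaged 7.33 to 7.56 in BMP24h, 7.36 in each BMP6h array and 7.38 to 7.46 in control cultures. Endothelial and mural markers averaged 6.76 to 6.80, 6.73 to 6.86 and 6.83 to 7.01 in BMP24h, BMP6h and control cultures, and macrophage and blood markers 6.72 to 6.80, 6.82 to 6.94 and 6.80 to 6.89. In BMP24h against control the median was -0.05 for neuronal markers (8 lower, 3 higher) and 0.02 for glial markers (5 lower, 5 higher). It was -0.12 for endothelial and mural markers (5 lower, 4 higher) and -0.11 for macrophage and blood markers (6 lower, 2 higher). The part of any other cells in the lower values of Gsr, Sod2 and Nqo1 was not tested, and fewer cells of a type cannot be told apart from less RNA per cell.

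Glutathione transferases join glutathione to reactive compounds, and they formed the largest family here with 13 genes, Mgst1 of the microsomes among them. In BMP24h against control their differences ran from -0.28 (Gsta1) to 0.25 (Gstt2) with a median of 0.014, and 0 passed the adjusted test. Gstp1, an abundant transferase of many cell types, read 11.69, 11.36 and 11.28 in BMP24h, 11.93, 11.54 and 11.45 in BMP6h and 10.71, 11.52 and 11.51 in control cultures. Control replicate 1 stood lowest, and the differences were 0.19 ± 0.259 (BMP24h against control) and 0.39 ± 0.259 (BMP6h against control).

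A second Gstp1 probe set gave the other sign. It read 10.72, 10.83 and 10.81 in BMP24h, 11.02, 10.99 and 10.89 in BMP6h and 11.03, 11.07 and 10.93 in control cultures. Here the BMP24h arrays lay below all others, with a difference against control of -0.22 ± 0.111 (limma adjusted p = 1). The low control replicate 1 of the brighter probe set was not seen at this one.

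Gsta1, an alpha class transferase, read 7.53, 7.23 and 7.49 in BMP24h, 7.71, 7.96 and 7.61 in BMP6h and 7.63, 7.70 and 7.76 in control cultures. The BMP24h arrays lay below both other conditions. The difference was -0.34 ± 0.144 against BMP6h, 1.27-fold lower (limma adjusted p = 0.939), and -0.28 ± 0.144 against control (adjusted p = 1). Without BMP6h replicate 2 the difference against BMP6h was -0.236 with an unadjusted p of 0.115. The probes of this set can match several transcripts of the family, and the study's tables name it Gsta3, so which alpha transferase it reads is not settled.

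The other Gsta1 probe sets gave -0.03 ± 0.221 and -0.00 ± 0.318 in BMP24h against BMP6h over all arrays, and -0.286 ± 0.147 and -0.328 ± 0.258 without BMP6h replicate 2. The dimmest of them had lower values in both BMP-7 conditions, at 6.63, 6.35 and 6.92 in BMP24h, 6.89, 6.04 and 6.98 in BMP6h and 7.03, 7.03 and 7.76 in control cultures (-0.64 ± 0.318 and -0.64 ± 0.318 against control, limma adjusted p = 1 and 0.887), and without BMP6h replicate 2 its BMP6h difference was -0.311. The gene annotated Gsta3 averaged 7.88 ± 0.12 in BMP24h, 7.75 ± 0.04 in BMP6h and 7.81 ± 0.25 in control cultures (SD, n = 3 each). On single arrays Gsta3 read 7.83, 8.01 and 7.78 in BMP24h, 7.78, 7.71 and 7.75 in BMP6h and 7.81, 8.06 and 7.55 in control cultures, with no separation.

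Gstm1, a mu class transferase, showed the same kind of split. Its brightest probe set read 9.24, 9.11 and 9.53 in BMP24h, 9.36, 8.97 and 9.46 in BMP6h and 9.23, 9.25 and 9.35 in control cultures, and its differences were all within 0.03 of 0, while without BMP6h replicate 2 those with BMP6h were -0.131 (BMP24h against BMP6h) and 0.145 (BMP6h against control). Its dimmest probe set, the one in the study's tables, read 8.87, 8.83 and 8.77 in BMP24h, 9.13, 9.34 and 9.04 in BMP6h and 9.04, 9.07 and 9.02 in control cultures. There the BMP24h arrays lay below all others, at -0.35 ± 0.121 against BMP6h (limma adjusted p = 0.939) and -0.22 ± 0.121 against control (adjusted p = 1). Without BMP6h replicate 2, its highest array, the difference against BMP6h was -0.253 ± 0.103 and no longer reached 1.2-fold.

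Among the other transferases, Gstt2 had arrays that did not overlap, at 6.26, 6.33 and 6.81 in BMP24h and 6.21, 6.23 and 6.21 in control cultures, a difference of 0.25 ± 0.216 (limma adjusted p = 1). The second Gstt2 probe set had the opposite sign and a wider error, at 6.08, 5.20 and 6.36 in BMP24h and 6.05, 5.92 and 7.76 in control cultures (-0.70 ± 0.561), which overlapped. Gstm7 read 9.78, 9.73 and 9.84 in BMP24h and 9.91, 9.92 and 10.11 in BMP6h, which did not overlap either (-0.20 ± 0.116, adjusted p = 0.939). Gstk1, a transferase of mitochondria and peroxisomes, held the steadiest BMP6h values, at 10.19, 10.18 and 10.19. Gsto1, Gstm5, Gsta4, Gstm2, Mgst1 and Gstt1 had mean levels over the 9 arrays of 9.78, 8.54, 7.38, 7.31, 6.83 and 6.49.

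**Figure D3:**
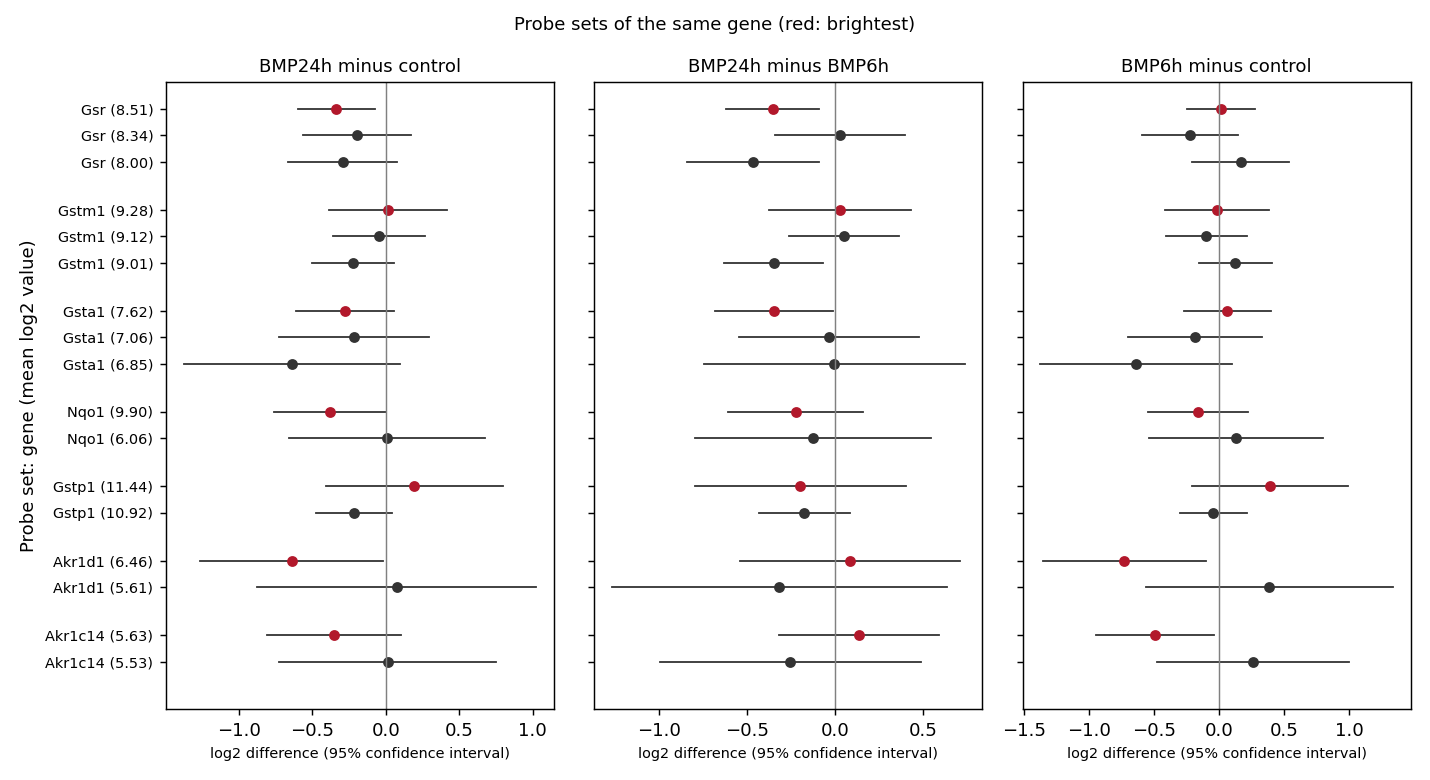
The log2 difference with its 95% confidence interval for every probe set of Gsr, Gstm1, Gsta1, Nqo1, Gstp1, Akr1d1 and Akr1c14, in BMP24h minus control, BMP24h minus BMP6h and BMP6h minus control, with the brightest probe set of each gene in red and its mean level in parentheses. The Gsr probe sets run from -0.46 to 0.03 in BMP24h minus BMP6h, and those of Akr1d1 from -0.64 to 0.07 in BMP24h minus control.

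Probe sets of the same gene often had opposite signs in the group. The share over all named genes is not given here, so this is not a trait of the group. Some of the differences were near 0, such as 0.007 at the second Nqo1 probe set in BMP24h against control. Of the 32 genes with several probe sets, 15 had both signs in BMP24h against control, 15 in BMP6h against control and 12 in BMP24h against BMP6h (13 and 9 in the comparisons with BMP6h without BMP6h replicate 2). In each comparison 2 of these included a probe set past the unadjusted thresholds: Akr1d1 and Nqo1, Akr1c14 and Akr1d1, and Gsr and Gstm1, the last pair with one sign each once BMP6h replicate 2 was left out. Of the 98 probe sets, 26 carry the suffix for probes shared by several transcripts and 4 that for probes with family members in common.

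Glutathione peroxidases reduce peroxides with glutathione, and 7 of them were measured. Gpx3, the secreted enzyme, was the brightest, at 10.71, 10.66 and 10.74 in BMP24h, 10.91, 10.83 and 11.02 in BMP6h and 10.86, 10.78 and 10.93 in control cultures. The BMP24h arrays lay below both other conditions by a small amount, -0.15 ± 0.113 against control and -0.21 ± 0.113 against BMP6h (limma adjusted p = 1 and 0.939). Its difference against BMP6h was -0.264 without BMP6h replicate 2. Gpx1, the cytosolic enzyme, read 9.48, 9.51 and 9.59 in BMP24h, 9.76, 9.69 and 9.88 in BMP6h and 9.71, 9.65 and 9.58 in control cultures, so that BMP24h lay below BMP6h (-0.25 ± 0.113, adjusted p = 0.939, and -0.297 without BMP6h replicate 2) and overlapped control. The other Gpx1 probe sets differed from this. One read 8.64, 8.58 and 8.78 in BMP24h, 8.93, 8.74 and 8.79 in BMP6h and 8.81, 8.79 and 9.08 in control cultures, with BMP24h below control (-0.22 ± 0.134). The dimmest read 7.41, 7.41 and 7.30 in BMP24h, 7.33, 7.84 and 7.05 in BMP6h and 7.21, 7.07 and 7.23 in control cultures, with BMP24h above control (0.20 ± 0.200), and its difference in BMP24h against BMP6h was -0.04, or 0.200 without BMP6h replicate 2.

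Gpx4, which reduces lipid peroxides in membranes, averaged 10.28 ± 0.15 in BMP24h, 10.46 ± 0.06 in BMP6h and 10.39 ± 0.05 in control cultures (SD, n = 3 each), and its BMP24h arrays lay below those of BMP6h. Gpx7, an enzyme of the endoplasmic reticulum, went the other way. It read 7.52, 7.53 and 7.54 in BMP24h, 7.18, 6.94 and 7.50 in BMP6h and 7.33, 7.13 and 7.43 in control cultures, above every array of both other conditions. Its differences were 0.23 ± 0.167 against control and 0.32 ± 0.167 against BMP6h (limma adjusted p = 1 and 0.939). Without BMP6h replicate 2, the lowest array, that against BMP6h was 0.177 ± 0.143. Gpx2, Gpx6 and Gpx5 had mean levels of 5.55, 5.68 and 5.19.

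The peroxiredoxins were bright, with ranges over the 9 arrays of 0.33 to 0.63 at their brightest probe sets, against a median of 0.37 over all named genes as bright. Prdx2, a cytosolic peroxiredoxin, read 11.40, 11.18 and 11.71 in BMP24h, 11.51, 11.28 and 11.66 in BMP6h and 11.47, 11.38 and 11.54 in control cultures, all overlapping. Its difference in BMP24h against control was -0.03, with a 95% confidence interval of -0.43 to 0.36. Prdx1, Prdx6 and the mitochondrial Prdx3 had mean levels of 10.61, 10.10 and 9.61. Over the brightest probe sets of the 4 peroxiredoxins the differences ran from -0.087 to 0.098 in BMP24h against control and from -0.097 to 0.020 in BMP6h against control. Without BMP6h replicate 2 those in BMP6h against control ran from -0.102 (Prdx6) to 0.153 (Prdx3), with Prdx2 at 0.128. Over all arrays and all 7 of their probe sets the differences ran from -0.187 to 0.098 and from -0.335 to 0.020. The -0.187 is the second Prdx3 probe set, at 9.07, 8.83 and 9.08 in BMP24h and 9.12, 9.09 and 9.33 in control cultures, which did not overlap, while the brighter one gave 0.098. The -0.335 is the dimmest Prdx6 probe set, and it was -0.108 without BMP6h replicate 2.

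The thioredoxin system is taken here, by symbol and not by function, as the 6 genes whose symbols start with Txn. The gene of cytosolic thioredoxin was not among them. Txnip, a protein that binds thioredoxin and holds back its activity, read 6.68, 7.00 and 6.78 in BMP24h, 6.81, 6.54 and 7.04 in BMP6h and 7.23, 7.04 and 7.04 in control cultures. BMP24h lay below control, with a difference of -0.29 ± 0.166 (limma adjusted p = 1). Txnrd1, the cytosolic thioredoxin reductase, read 10.53, 10.54 and 10.53 in BMP24h, 10.36, 10.52 and 10.43 in BMP6h and 10.58, 10.34 and 10.57 in control cultures, so that the BMP24h arrays lay just above those of BMP6h (0.10 ± 0.119) and within the range of control. Its second probe set ran the other way, at 8.91, 8.77 and 9.20 in BMP24h and 9.23, 9.27 and 9.10 in BMP6h, which overlapped (-0.24 ± 0.146). Txn2, the mitochondrial thioredoxin, Txnl1, Txnrd2 and Txnl4b had mean levels of 9.97, 9.11, 7.66 and 7.15.

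Aldo-keto reductases reduce aldehydes and ketones, steroids among them, with NADPH. Akr1a1, an aldehyde reductase, was the brightest gene of the whole group and the steadiest of the bright ones, at 12.07, 12.05 and 12.16 in BMP24h, 12.19, 12.13 and 12.19 in BMP6h and 12.13, 12.22 and 12.04 in control cultures. Its difference in BMP24h against control was -0.04, with a 95% confidence interval of -0.29 to 0.22. Akr1b1, aldose reductase, averaged 10.47 ± 0.05 in BMP24h, 10.54 ± 0.09 in BMP6h and 10.49 ± 0.20 in control cultures (SD, n = 3 each).

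Akr1d1 and Akr1c14, both enzymes of steroid reduction in the liver, gave the lower values in BMP6h against control. Akr1d1 read 6.38, 6.09 and 6.36 in BMP24h, 6.50, 5.83 and 6.25 in BMP6h and 6.51, 6.82 and 7.43 in control cultures. The lowest control array was 0.01 above the highest BMP6h array, and control replicate 3 stood highest. The difference was -0.64 ± 0.268 in BMP24h against control (limma adjusted p = 1) and -0.73 ± 0.268 in BMP6h against control (adjusted p = 0.887). Without control replicate 3 these were -0.363 and -0.447, and without BMP6h replicate 2 the 6 hr difference was -0.530, with unadjusted p of 0.150, 0.087 and 0.086. Between the single arrays of batch 1 they were -0.130 and -0.013, against -0.897 and -1.082 in batch 2.

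The second Akr1d1 probe set read 5.62, 5.95 and 5.03 in BMP24h, 5.64, 6.75 and 5.15 in BMP6h and 5.58, 5.42 and 5.39 in control cultures. Its differences had the opposite sign and wide errors, 0.07 ± 0.409 in BMP24h against control and 0.39 ± 0.409 in BMP6h against control, with BMP6h replicate 2 the highest array. Without that array the 6 hr difference was -0.106. At the brighter probe set the same array was the lowest of all 9.

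Akr1c14 read 5.55, 5.64 and 5.49 in BMP24h, 5.68, 5.15 and 5.44 in BMP6h and 5.67, 5.83 and 6.24 in control cultures. BMP6h overlapped control at 5.68 and 5.67, and the difference was -0.49 ± 0.196 (limma adjusted p = 0.887). It was -0.341 without BMP6h replicate 2 and -0.309 without control replicate 3 (unadjusted p = 0.110 and 0.129), and 0.010 between the single arrays of batch 1. In BMP24h against control it was -0.35 ± 0.196 (adjusted p = 1). Its second probe set read 5.52, 5.75 and 5.06 in BMP24h, 5.63, 6.35 and 5.12 in BMP6h and 5.42, 5.57 and 5.30 in control cultures, again with the opposite sign at 6 hr (0.26 ± 0.318), which was -0.090 without BMP6h replicate 2. Akr7a2, Akr7a3, Akr1c3 and Akr1c13 had mean levels of 8.66, 6.89, 5.93 and 4.12.

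Aldehyde dehydrogenases oxidize aldehydes to acids, and the differences of the 9 measured ran from -0.24 (Aldh1a2) to 0.17 (Aldh1l1) in BMP24h against control, with 0 past the unadjusted thresholds in any comparison. Aldh3a2, a fatty aldehyde dehydrogenase and the brightest of them, read 8.77, 8.82 and 8.64 in BMP24h, 8.75, 8.95 and 8.65 in BMP6h and 8.96, 8.91 and 8.99 in control cultures. BMP24h lay below control, at -0.21 ± 0.126 (limma adjusted p = 1). The other Aldh3a2 probe sets had the opposite sign in this comparison, 0.04 ± 0.195 and 0.20 ± 0.214, and their arrays overlapped. Aldh2, the mitochondrial enzyme of acetaldehyde oxidation, averaged 7.57 ± 0.16 in BMP24h, 7.42 ± 0.32 in BMP6h and 7.66 ± 0.05 in control cultures, and Aldh1a1, which oxidizes retinaldehyde, 6.93 ± 0.16, 7.12 ± 0.63 and 7.02 ± 0.22 (SD, n = 3 each). Aldh7a1, Aldh6a1, Aldh1l1, Aldh3a1, Aldh1a2 and Aldh5a1 had mean levels of 8.76, 7.88, 6.13, 5.80, 5.61 and 4.71.

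Counted over the group, 11 genes (19.6%) had BMP24h arrays that did not overlap control, against 13.6% of all named genes. Of these 9 were lower (16.1%, against 7.69% of all named genes), namely Gsr, Sod2, Nqo1, Gsta1, Gpx3, Txnip, Aldh3a2, Akr1d1 and Akr1c14, and 2 were higher (3.57%, against 5.95%), Gpx7 and Gstt2. Of the 9, 8 had further probe sets, and in 4 (Nqo1, Aldh3a2, Akr1d1 and Akr1c14) a further one had the opposite sign, as in Gstt2 and, against BMP6h, in Gsr and Txnrd1. The further values of these 4 reached only 0.007 (Nqo1), 0.012 (Akr1c14), 0.073 (Akr1d1) and 0.196 (Aldh3a2), so several were near 0. In BMP24h against BMP6h 9 genes did not overlap (16.1%, against 10.4%), with 7 lower (12.5%, against 4.27%) and Gpx7 and Txnrd1 higher (3.57%, against 6.12%). In BMP6h against control Akr1d1 alone did not overlap at the brightest probe sets (1.79%, against 10.5%, with 7.37% lower and 3.12% higher). Further probe sets of Gclm and Gsto1 did not overlap there and were higher (0.371 and 0.243, or 0.211 and 0.262 without BMP6h replicate 2). A further one of Gsta1 was lower (-0.636, or -0.311 without that array). Without BMP6h replicate 2, which leaves fewer arrays to overlap, 12 genes (21.4%, against 17.4%) did not overlap in BMP24h against BMP6h, 10 lower (17.9%, against 8.87%) and 2 higher (3.57%, against 8.53%). In BMP6h against control 7 did not (12.5%, against 18.5%), 5 higher (8.93%, against 7.07%) and 2 lower (3.57%, against 11.4%). These counts have no test, and the members were named with earlier results of these data known.

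The level of a gene went with its spread. For the 17 genes with a mean under 7 the median range over the 9 arrays was 1.09, from 0.26 (Aldh3a1) to 2.98 (Gpx5), while for the 21 genes from 9 up it was 0.41. Over all named genes the same medians were 0.91 and 0.37. BMP6h replicate 2 held much of this spread, with 17 of the 56 genes (30.4%) more than 0.5 away from the average of the remaining BMP6h arrays, 12 of them among the 17 dim genes and 0 among the 21 bright ones. Gpx5, which is known from the epididymis, read 7.49 on that array and 5.15 and 4.51 on the other BMP6h arrays, against 5.16, 5.07 and 4.64 in BMP24h and 5.24, 4.76 and 4.63 in control cultures. BMP6h replicate 3 had 11 such genes, control replicate 3 had 7, and the other arrays had 0 to 4.

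**Figure D4:**
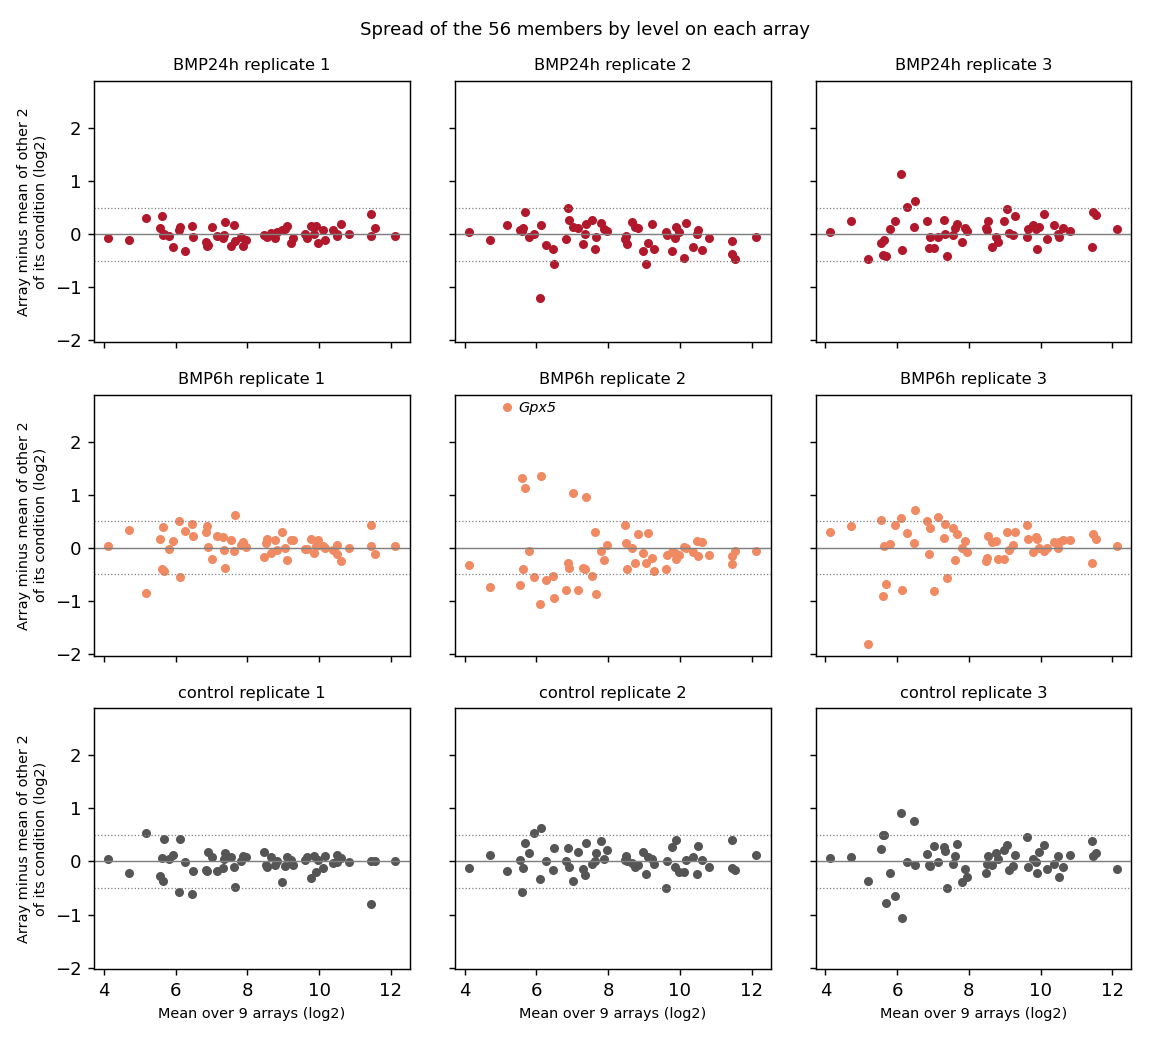
For each of the 9 arrays, the difference of each of the 56 genes from the average of the remaining arrays in that condition (log2, vertical axis) against its mean over the 9 arrays (log2, horizontal axis), with dotted lines at 0.5 and -0.5. BMP6h replicate 2 has 17 genes beyond the lines, Gpx5 the farthest, and BMP24h replicate 1 has 0.

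Other genes of thiol, peroxide and aldehyde metabolism were taken from a list of 110 symbols, of which 60 were measured. None passed the adjusted test in limma, and at the unadjusted thresholds 5 (8.33%, against 3.82% of all named genes) did in BMP24h against control, 5 (8.33%, against 3.21%) in BMP24h against BMP6h and 1 (1.67%, against 1.79%) in BMP6h against control. Cdo1, cysteine dioxygenase, which diverts cysteine from glutathione to taurine, read 7.43, 6.91 and 7.44 in BMP24h, 7.69, 7.71 and 7.99 in BMP6h and 8.36, 8.17 and 8.75 in control cultures, with no overlap between any of the conditions. Its difference was -1.17 ± 0.214 in BMP24h against control (adjusted p = 0.154) and -0.63 ± 0.214 in BMP6h against control (adjusted p = 0.887).

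The monoamine oxidases, which give hydrogen peroxide as they break down catecholamines, were both low in BMP24h. Maoa read 10.59, 10.41 and 10.86 in BMP24h, 11.21, 11.19 and 11.20 in BMP6h and 11.33, 11.15 and 11.46 in control cultures. Maob read 8.25, 8.06 and 8.20 in BMP24h, 8.81, 8.56 and 9.27 in BMP6h and 8.96, 8.90 and 9.06 in control cultures. For both genes the BMP24h arrays lay below all others, by -0.70 ± 0.152 (Maoa) and -0.81 ± 0.187 (Maob) against control (limma adjusted p = 0.294 and 0.348).

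Abcb1b, a drug export pump, read 5.70, 5.76 and 6.05 in BMP24h, 6.31, 5.74 and 6.20 in BMP6h and 6.38, 6.13 and 6.90 in control cultures (-0.64 ± 0.242 in BMP24h against control, limma adjusted p = 1). Nnt, the mitochondrial transhydrogenase that makes NADPH, was the single gene of the list with higher values past the unadjusted thresholds in BMP24h against control, at 5.48, 5.57 and 6.01 in BMP24h, 5.03, 4.26 and 5.58 in BMP6h and 5.03, 5.01 and 4.62 in control cultures (0.80 ± 0.330, adjusted p = 1). Its BMP6h arrays spanned more than those of the other conditions. Adh5, which reduces nitrosoglutathione and oxidizes formaldehyde bound to glutathione, and P4hb, protein disulfide isomerase, had higher values in BMP24h than in BMP6h. Adh5 read 9.13, 9.16 and 9.10 in BMP24h and 8.78, 8.64 and 8.87 in BMP6h (0.37 ± 0.112, adjusted p = 0.939), with control cultures between them at 8.96, 8.98 and 9.00. P4hb read 10.55, 10.68 and 10.44 in BMP24h and 10.34, 10.21 and 10.30 in BMP6h (0.27 ± 0.116, adjusted p = 0.939). When BMP6h replicate 2, the lowest BMP6h array at both genes, was left out, these were 0.297 for Adh5 and 0.231 for P4hb, and P4hb no longer passed the unadjusted thresholds.

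Nfe2l2, which encodes Nrf2, read 7.02, 6.81 and 6.84 in BMP24h, 6.38, 6.93 and 6.32 in BMP6h and 6.57, 6.54 and 6.51 in control cultures. The BMP24h arrays lay above the control arrays, with a difference of 0.35 ± 0.179 (limma adjusted p = 1). Against BMP6h the difference was 0.34 over all arrays and 0.556 without BMP6h replicate 2, which was the highest BMP6h array (adjusted p = 0.351 in that fit). Hmox1, heme oxygenase and a known Nrf2 target, read 9.85, 10.08 and 9.79 in BMP24h, 9.88, 10.01 and 9.57 in BMP6h and 9.89, 9.94 and 9.86 in control cultures, which overlapped (0.01 ± 0.151 in BMP24h against control). Both genes were singled out after their values had been seen.

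**Figure D5:**
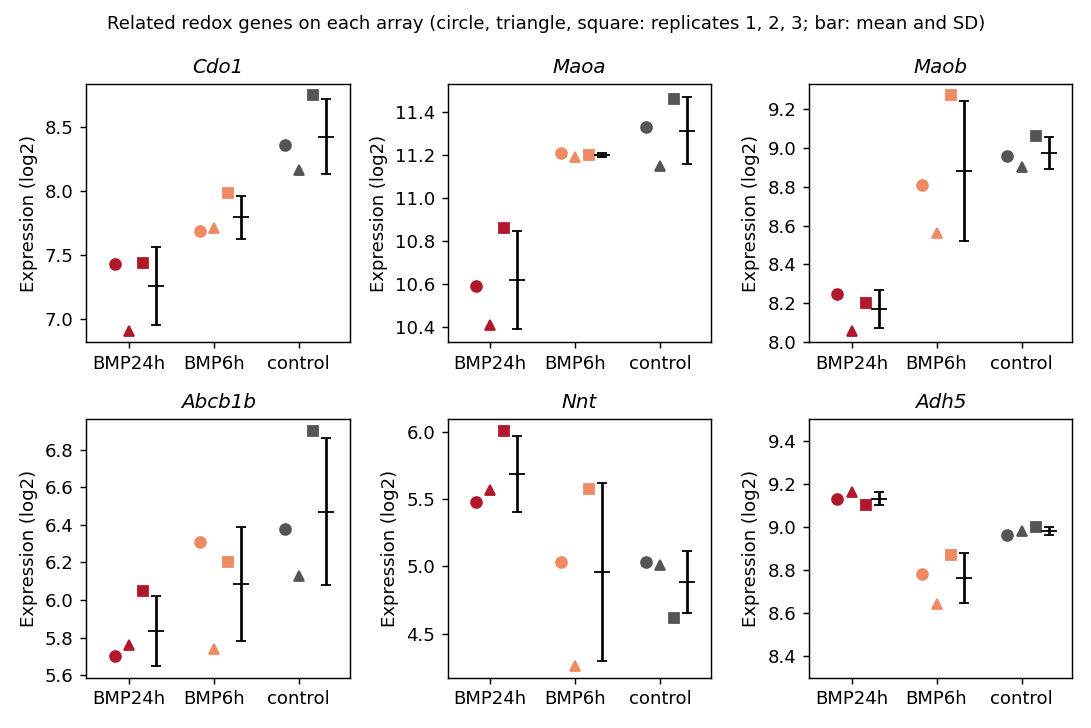
Log2 expression of Cdo1, Maoa, Maob, Abcb1b, Nnt and Adh5 on each array (circle, triangle and square for replicates 1, 2 and 3), with the mean and SD of each condition. The Cdo1 arrays run from 6.91 to 7.44 in BMP24h, 7.69 to 7.99 in BMP6h and 8.17 to 8.75 in control cultures, and the BMP24h arrays of Maoa and Maob lie below all others.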

How the data were processed

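The deposited file holds log2 values for 9 arrays, which the authors obtained by RMA in Partek, followed by removal of the difference between processing batches. The largest difference left between batch means was 6.7e-05, and 0 pairs of arrays were identical. The array has 8799 probe sets, and 59 of them are controls that were not used. The array annotation gives 1 gene for 7006 of the remaining 8740, several for 308 and none for 1426.

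A linear model with terms for condition and batch, which leaves 5 residual degrees of freedom, was fitted in limma 3.58.1 (R 4.3.3), followed by Benjamini-Hochberg adjustment over all probe sets tested. The fit was tested on simulated data. Arrays have no sequencing depth, so precision rests on their number.

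The members and the lists were chosen with earlier results of these data known. Values on every array are given for members past the adjusted test or the thresholds of the Methods, those in the study's tables, the 5 brightest, and those whose probe sets disagree with 1 past those thresholds, and up to 10 related genes; other genes with such values were added after they were seen. The alternatives were the replicate block, no batch term, the ordinary analysis of variance of the Methods, an intensity trend, array weights, removal of the lowest 25% of probe sets, renewed quantile normalization, median centring, the compared conditions alone, each batch alone, the mean over probe sets and leaving out each array. The authors' processing was not repeated, since array images were not analysed here.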

Additional observations from a re-analysis of the deposited data

Results flagged for a closer look

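Gpx1 and Gstm7 had all BMP24h arrays on one side of the control mean and all BMP6h arrays on the other. The BMP24h minus BMP6h difference was -0.249 ± 0.113 (SE) for Gpx1 (limma adjusted p = 0.939) and -0.195 ± 0.116 for Gstm7 (adjusted p = 0.939), lower in BMP24h on 3 of 3 arrays each, so neither passed the test. These are the brightest probe sets. The other Gpx1 probe sets did not show the pattern, and Gstm7 had no other. The same pattern was found in 2 of the 56 genes (3.57%) and in 79 of all 4736 named genes (1.67%). With 3 arrays a condition, single arrays were not tested for standing apart.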

How the results depend on the processing

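Counts of genes past the unadjusted thresholds of the Methods depended on the processing. The share of all named genes past them in each alternative fit is not given here. The counts in this section therefore do not show whether the group differed from other genes in a fit. In BMP24h against control (4 genes) the count was 1 with the ordinary analysis of variance, 2 in batch 2 alone, 2 with the mean over probe sets and 7 with array weights. In BMP6h against control (2 genes) it was 0 with the analysis of variance, with the 2 compared conditions alone and with the mean over probe sets, 1 when the prior variance followed intensity and 4 with array weights. In BMP24h against BMP6h (2 genes) it was 0 in batch 2 alone and with the mean over probe sets, 1 with median centring and with the 2 conditions alone, and 5 with array weights. Leaving out 1 array gave 0 to 5, 0 to 5 and 0 to 4 genes, with 0 in BMP24h against control without control replicate 2 or BMP24h replicate 1, in BMP6h against control without control replicate 3 or BMP6h replicate 2, and in BMP24h against BMP6h without BMP6h replicate 1. The adjusted count stayed at 0 in each of these fits except those with array weights. The medians ran over -0.076 to -0.019, -0.08 to -0.009 and -0.049 to 0.055, and that of BMP24h against BMP6h was -0.091 between the single arrays of batch 1. Akr1c14 in BMP6h against control was 0.010 between those arrays. The cause was not tested.

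Array weights changed the adjusted count most. With the default method of limma, 9 genes passed in BMP24h against control, 2 in BMP6h against control and 21 in BMP24h against BMP6h, where the median was -0.078. At the unadjusted thresholds 3 of the 7 genes in BMP24h against control and 3 of the 4 in BMP6h against control then had higher values, and neither Akr1d1 nor Akr1c14 was among them. Over all probe sets this fit called 1324, 184 and 2721, against 19, 4 and 0 without weights, and gave BMP24h replicate 1 a weight of 34.2 and BMP6h replicate 2 one of 0.066. Gsr was -0.348 (BMP24h against control) and -0.423 (against BMP6h), Gstm1 at its dimmest probe set -0.190 and -0.257, and Gsta1 -0.183 against BMP6h, all past the adjusted test. After these counts had been seen, and with knowledge of an earlier analysis of these data that used it, the gene by gene method was added. It called 280, 29 and 198 probe sets and 1, 0 and 1 genes of the group, Gsr in each case (-0.361 and -0.365, adjusted p = 0.0361 and 0.0475), and the unadjusted thresholds were passed by 6, 2 and 4. The 2 in BMP6h against control were then Gstp1 and Txnrd2, both higher, in place of Akr1d1 and Akr1c14. Which set of weights fits these arrays was not tested.

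A replicate block was fitted instead of the batch term. Each dissection supplied all conditions, but the labels do not say that the replicate number marks it. Removal of the batch difference makes the replicate 1 deviations, which are batch 1, sum to 0, so their correlations (-0.740 to -0.215) could not show a pairing. Those of replicates 2 and 3 ran from -0.083 to 0.532, which does not settle a pairing. Of the 9 arrays, 2 correlated best with their own number. That count includes the replicate 1 arrays, so it does not settle a pairing either. With the block 5, 2 and 2 genes passed the unadjusted thresholds and 0 passed the adjusted test. The medians were -0.036, -0.055 and 0.017, and Gclc was added in BMP24h against control while Gpx7 took the place of Gsta1 in BMP24h against BMP6h.

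Single genes were recomputed where they passed the unadjusted thresholds and for the probe sets of Gsr, Gstm1 and Gsta1 in the study's tables. The counts of arrays that do not overlap and the related genes were recomputed only without BMP6h replicate 2, which was added after the data had been seen. The related genes past the unadjusted thresholds in BMP24h against BMP6h were then 5 as before, with Nfe2l2 in place of P4hb. In the simulation, with 3 arrays a condition, differences of 1.5-fold or less were mostly not called by the adjusted test without array weights.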
